A study of Bos taurus with 4 samples.

Results

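Transcripts of the machinery that moves proteins through the endoplasmic reticulum (ER), the Golgi and the endosomes were examined in bovine gamma delta T cells after exposure to apple polyphenol (APP). The genes were taken by symbol from the array's annotation. They are the genes named as SEC, COPI coat (COPA to COPZ), TMED, TRAPPC, VPS, sorting nexin (SNX), syntaxin (STX), VAMP, SNAP, golgin (GOLGA), COG, adaptor subunit (AP1 to AP4), SFT2D, YIPF, exocyst (EXOC) and CHMP genes. This gave 159 of the 9155 genes named on the array, measured by 235 probe sets. The choice used names alone and no measured value, but it was made with earlier results of these data known.

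Proteins for secretion or for the cell surface enter the ER through the SEC61 channel and leave it in vesicles with a COPII coat. COPI vesicles return escaped proteins, and tethers and SNAREs let each vesicle dock and fuse with the right membrane. From the Golgi and the plasma membrane, clathrin adaptors load cargo for endosomes. There the sorting nexins and retromer retrieve it, and the ESCRT proteins and the HOPS tether carry it to the lysosome. T cells use these routes to place antigen receptors on their surface, to recycle them and to release cytokines.

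The cells came from peripheral blood of 2 calves, 301 and 303, were sorted to over 97% purity and rested overnight. APP cells received 42.2 µg/ml of an aqueous extract for 4 h, and PBS cells, of the same calves, received phosphate-buffered saline for 4 h. Each treatment thus had 1 array per calf, 4 arrays in all. The labels' protocols give an age of 1 to 6 months and the design text calls the calves neonatal. No breed is given in the sources used here.

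The deposited values are ratios in which the median of each probe set over the 4 arrays is 1. They are called relative signal below, and a gene's value is the mean over its probe sets on the log2 scale. Changes between arrays are kept and levels are lost, so neither the level of a gene nor the presence of gamma delta T cell transcripts could be read. The median ratio lay between 0.990 and 0.995 on the 4 arrays. Changes are APP minus PBS within a calf, on the log2 scale, given as the mean ± SD over n = 2 calves. Calls are from limma with the calf as a block and Benjamini-Hochberg adjustment over all 9155 genes, at an adjusted p under 0.05. Nothing states that arrays of a calf came from separate cultures, so p-values measure the spread between these arrays. With 2 calves, an exact permutation test that exchanges treatments within a calf cannot go below p = 0.5.

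More trafficking genes were lower with APP than higher. Of the 159 genes, 79 (49.7%) fell, 18 (11.3%) rose and 62 did not pass. Among all named genes 29.7% fell and 23.0% rose. The median change was -0.27, with -0.28 in calf 301 and -0.29 in calf 303, against 0.01 over all genes. The middle range of the changes ran from -0.66 to 0.07. In both calves 101 genes (63.5%) were lower with APP, against 42.4% of all genes. A further 38 were higher in both calves and 20 went opposite ways. In bulk RNA fewer cells of a type and less RNA per cell cannot be told apart.

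Without any model, 91 of the 159 genes had both APP arrays below both PBS arrays, a pattern found in 37.2% of all genes. Both APP arrays lay above both PBS arrays for 31, against 36.6% of all genes. In each calf 16 genes were lower by 2-fold or more (6.29% of all genes) and 1 gene, SNX9, was higher by that much (3.5% of all genes). By probe set, 103 of 235 fell and 19 rose, where 23.6% and 16.3% of all 24016 probe sets did.

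**Figure D1:**
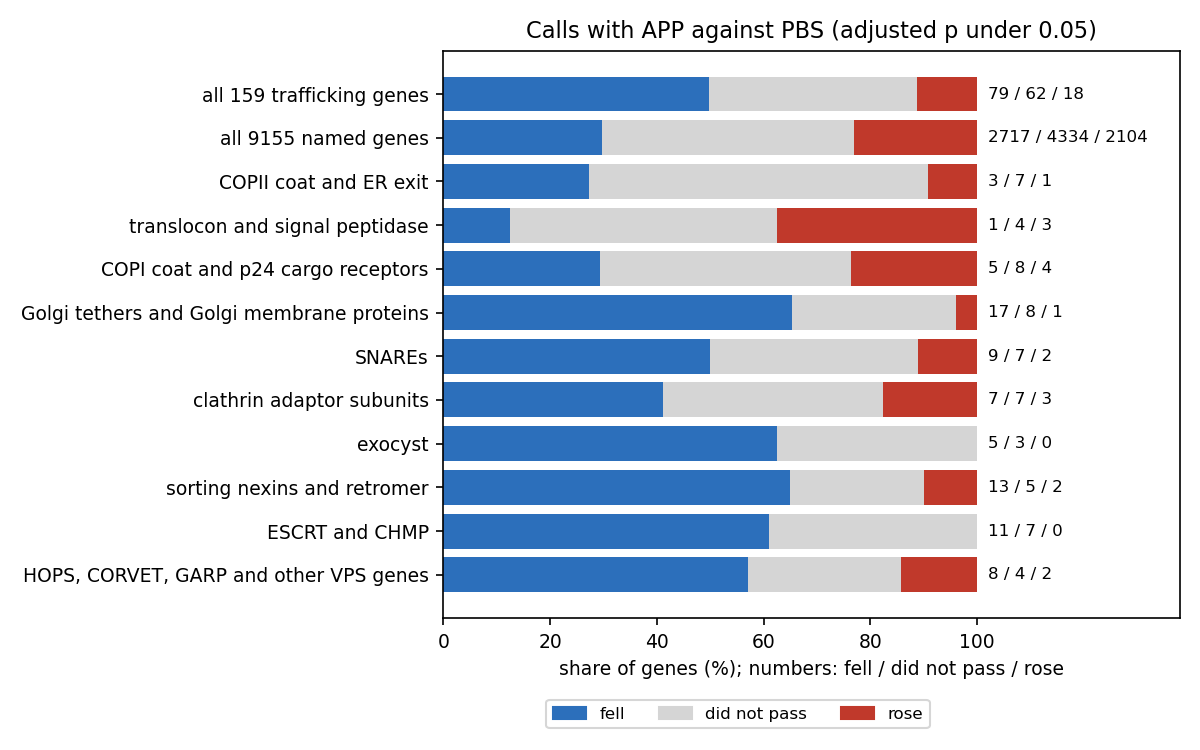
Share of genes (horizontal axis, %) that fell, did not pass or rose with APP against PBS, for all 159 trafficking genes, all 9155 named genes and 10 classes, with the counts at the right. Falls made up 49.7% of the trafficking genes against 29.7% of all genes. The class of 2 SEC14-related genes is left out. The rises depend on the scaling of the arrays, since with arrays scaled to the hybridization controls 1 of the 18 is still called as a rise, 10 are called as falls and 7 are not called.

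The balance of rises and falls depends on how the arrays are scaled. The bacterial hybridization controls, which are added to every sample, read higher in APP than in PBS arrays, with log2 differences of 0.776 in calf 301 and 0.928 in calf 303. When each array was instead scaled to these controls, here called control scaling, the median of all genes moved to -0.84 and that of the trafficking genes to -1.13. The trafficking genes then had 151 falls and 1 rise, against 8224 and 298 among all genes. Of the 18 genes that rose, 15 had changes below 0 under control scaling. SEC61A1 (0.06) and SEC61G (0.03) stayed above 0 without being called, and SNX9 (2.19) was still called as a rise. Of the others, 10 were called as falls. Changes below are relative to the deposited scaling, on which the median of all genes moved by 0.01.

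The number of calls was also lower with single arrays left out, among these genes as among all genes. Those fits also lack the calf block, so the effect of the missing array cannot be told apart from that of the block. Left out in turn, with no calf block, the counts were 52 falls and 10 rises without APP 301 and 62 falls and 11 rises without APP 303. They were 45 falls and 6 rises without PBS 301 and 34 falls and 5 rises without PBS 303. A call that held in all 4 of these fits is called stable below, which 27 falls and 5 rises were. With all arrays but without the calf block, 64 of the 79 falls and 11 of the 18 rises held their call.

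**Figure D2:**
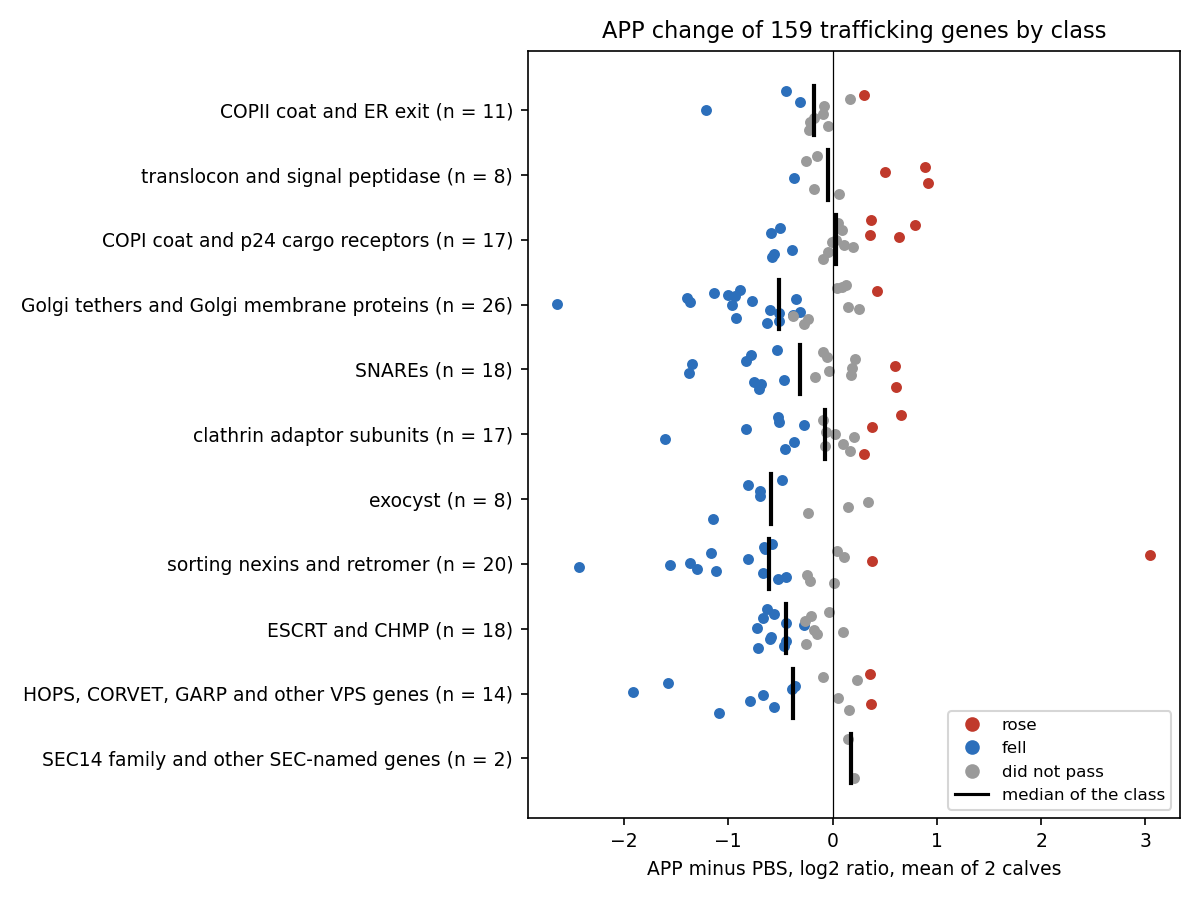
APP minus PBS change (horizontal axis, log2 ratio, mean of 2 calves) of each of the 159 genes, 1 point a gene, by class, with a bar at the median of the class. Medians lie lowest in sorting nexins and retromer (-0.61), exocyst (-0.59) and Golgi tethers (-0.51), and near 0 in the translocon (-0.04) and the COPI class (0.04). The median above 0 of the COPI class becomes -0.82 under control scaling.

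At the entry to the ER the channel subunits were higher with APP. The class of channel and signal peptidase genes held 8 members. Of these 3 rose (37.5%, against 23.0% of all genes), 1 fell (12.5%, against 29.7%) and 4 did not pass. SEC61A1, the pore-forming subunit, had relative signals of 1.24 and 1.52 on the APP arrays of calves 301 and 303 and 0.723 and 0.737 on the PBS arrays. It rose by 0.91 ± 0.19 (limma adjusted p = 0.00046). SEC61G, a small subunit of the same channel, had 1.25 and 1.44 with APP and 0.728 and 0.725 with PBS, a rise of 0.88 ± 0.15 (adjusted p = 0.000441). The third subunit, SEC61B, had 1.16 and 1.16 with APP and 0.830 and 0.805 with PBS, and rose by 0.50 ± 0.03 (adjusted p = 0.00413) where control scaling gives -0.35. For these 3 genes both APP arrays lay above both PBS arrays, an order found in 36.6% of all genes. The rises of SEC61A1 and SEC61G were stable, while that of SEC61B was lost without PBS 301 or without PBS 303 (adjusted p up to 0.0867).

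The second pore gene, SEC61A2, went the other way. It had 0.785 and 0.947 with APP and 1.09 and 1.14 with PBS and fell by 0.37 on average (SD 0.14, adjusted p = 0.0204). Its 5 probe sets ranged from -0.70 to 0.06, and without the calf block the call was lost (adjusted p = 0.0729). The catalytic signal peptidase subunits SEC11A and SEC11C had mean changes of 0.06 and -0.18, and the SEC61 partners SEC62 and SEC63 had -0.26 and -0.15. None of these 4 passed. They are given to complete the class and were picked with their values in view.

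Among the 11 genes of the COPII coat and ER exit, 3 fell (27.3%), 1 rose and 7 did not pass, with a median of -0.18. The share of falls is near the 29.7% of all genes. The class includes SEC22A, SEC22B and SEC22C, which are not coat genes and are not counted among the SNAREs below. None of these SEC22 genes passed. SEC23A, the inner coat protein that makes the GTPase SAR1 hydrolyse GTP, had 0.684 and 0.594 with APP against 1.70 and 1.29 with PBS. It fell 2.32-fold (-1.22 ± 0.13, limma adjusted p = 0.000106), the largest change of the class and its only stable call. Both APP arrays were well below both PBS arrays, an order found in 37.2% of all genes.

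The outer coat genes SEC31A and SEC31B moved in opposite directions. SEC31A had 1.19 and 1.02 with APP and 0.964 and 0.835 with PBS, a rise of 0.30 ± 0.01 (adjusted p = 0.0332) that is -0.55 under control scaling. SEC31B had 0.925 and 0.760 with APP and 1.24 and 1.06 with PBS, a fall by 0.45 on average (SD 0.04, adjusted p = 0.00695). The cargo-binding SEC24B fell by 0.31 (adjusted p = 0.0303), and its relative SEC24C had a change of 0.16 that did not pass (adjusted p = 0.199). The calls of SEC31A, SEC31B and SEC24B were lost without the calf block, at adjusted p = 0.128, 0.0623 and 0.0523.

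COPI coat subunits and p24 proteins, the TMED genes whose products gather cargo at the ER exit, formed a class of 17 genes with 5 falls (29.4%) and 4 rises (23.5%), near the 29.7% and 23.0% of all genes. All 4 rises were p24 genes. Of 9 p24 genes 4 rose and 2 fell, with a median of 0.09 that is -0.76 under control scaling. TMED6 had 1.19 and 1.38 with APP and 0.702 and 0.785 with PBS, and it rose by 0.79 ± 0.03 (limma adjusted p = 0.000506; -0.06 under control scaling). TMED10, an abundant p24 cargo receptor, had 1.24 and 1.22 with APP and 0.788 and 0.792 with PBS. Its rise of 0.64 ± 0.02 (adjusted p = 0.00134; -0.21 under control scaling) averaged probe sets at 0.19 and 1.09. The rises of TMED6 and TMED10 were stable.

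TMED9 rose by 0.37 ± 0.11 (adjusted p = 0.0172; -0.48 under control scaling), with 1.32 and 1.02 with APP and 0.969 and 0.829 with PBS. TMED2 also rose, by 0.36 ± 0.14 (adjusted p = 0.0231; -0.50 under control scaling), and it was named after its value had been seen. Leaving out any 1 array but APP 303 ended the call of TMED9, and leaving out any 1 array ended that of TMED2. TMED3 fell by 0.59 on average, with 0.805 and 0.819 with APP and 1.27 and 1.18 with PBS (adjusted p = 0.00236), a call lost without PBS 301 (adjusted p = 0.0606).

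The COPI coat genes with a COP symbol had 3 falls (37.5%, against 29.7% of all genes) and no rise among 8. None was higher at an unadjusted p under 0.05 in limma's test. COPB1, the beta subunit, had 0.826 and 0.807 with APP and 1.16 and 1.29 with PBS, and fell by 0.58 on average (SD 0.14, adjusted p = 0.00296). COPB2, the beta-prime subunit, had 0.843 and 0.755 with APP and 1.14 and 1.22 with PBS, and fell by 0.56 (SD 0.19, adjusted p = 0.00424). Both kept their call without every array but PBS 303 (adjusted p = 0.0783 and 0.0871). COPG1 fell by 0.39 (adjusted p = 0.0164), a call lost with each array left out. Its relative COPG2 changed by 0.19 and the zeta subunits COPZ1 and COPZ2 by 0.11 and -0.0041, none of which passed.

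The Golgi tethers and Golgi membrane proteins were 26 genes, with a median of -0.51. Of these 17 fell (65.4%, against 29.7% of all genes) and 1 rose (3.85%, against 23.0%). SFT2D2, whose yeast homologue acts in vesicle fusion with the Golgi, had the largest fall of all 159 genes. Its relative signal was 0.288 and 0.264 with APP, against 1.70 and 1.73 with PBS. It fell 6.23-fold (-2.64 ± 0.11, limma adjusted p = 1.08e-05). Its paralogue SFT2D1 fell 1.95-fold (-0.96 ± 0.02, adjusted p = 0.00021), with 0.654 and 0.726 with APP and 1.26 and 1.43 with PBS. Both calls were stable, and the fall of SFT2D2 exceeded that of SFT2D1 by 1.61 in calf 301 and 1.74 in calf 303.

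TRAPP, the tether that captures ER-derived vesicles and activates the small GTPase Rab1, was mostly lower with APP. Of 8 TRAPP genes measured 7 fell (87.5%, against 29.7% of all genes) and 1 rose, with a median of -0.97. TRAPPC2L had 0.470 and 0.770 with APP and 1.22 and 2.07 with PBS, so that it fell in each calf while calf 303 read higher in both treatments. It fell 2.64-fold (-1.40 ± 0.03, adjusted p = 5.08e-05). TRAPPC1, a core subunit, had 0.448 and 0.628 with APP and 1.37 and 1.37 with PBS, and fell 2.58-fold (-1.37 ± 0.35, adjusted p = 0.0002). TRAPPC6B had 0.552 and 0.861 with APP and 1.12 and 2.05 with PBS, and fell by 1.13 on average (SD 0.16, adjusted p = 0.00016). The remaining falls, named to complete the complex after their values had been seen, were TRAPPC4 (-1.0006), TRAPPC3 (-0.93), TRAPPC11 (-0.77) and TRAPPC2 (-0.35).

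TRAPPC9, a subunit found in the TRAPPII form of the complex, was the exception. It had 1.20 and 1.12 with APP and 0.853 and 0.873 with PBS, and rose by 0.42 ± 0.09 (adjusted p = 0.00995) where control scaling gives -0.43. Within TRAPP the falls of TRAPPC1, TRAPPC3, TRAPPC4 and TRAPPC11 were stable. The fall of TRAPPC2L was lost without APP 301 or PBS 303 (adjusted p up to 0.0707). The fall of TRAPPC6B was lost without the calf block (adjusted p = 0.0535), and the rise of TRAPPC9 held with a single array left out only for APP 303.

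The COG complex, a tether for traffic within the Golgi, had 3 falls and no rise among 6 genes, with a median of -0.44 (at an unadjusted p under 0.05, 5 were lower and none higher). Its largest fall was COG6 (-0.93), which was stable and was named after its value had been seen. The GOLGA golgins had 4 falls and no rise among 6 genes (at an unadjusted p under 0.05, 4 were lower and 1 higher). Of the 4 YIPF genes, which encode multi-span Golgi membrane proteins, 1 fell and none rose or was higher at an unadjusted p under 0.05. Their median was 0.07, which is -0.78 under control scaling. The counts of these families stand beside 29.7% falls and 23.0% rises among all genes.

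**Figure D3:**
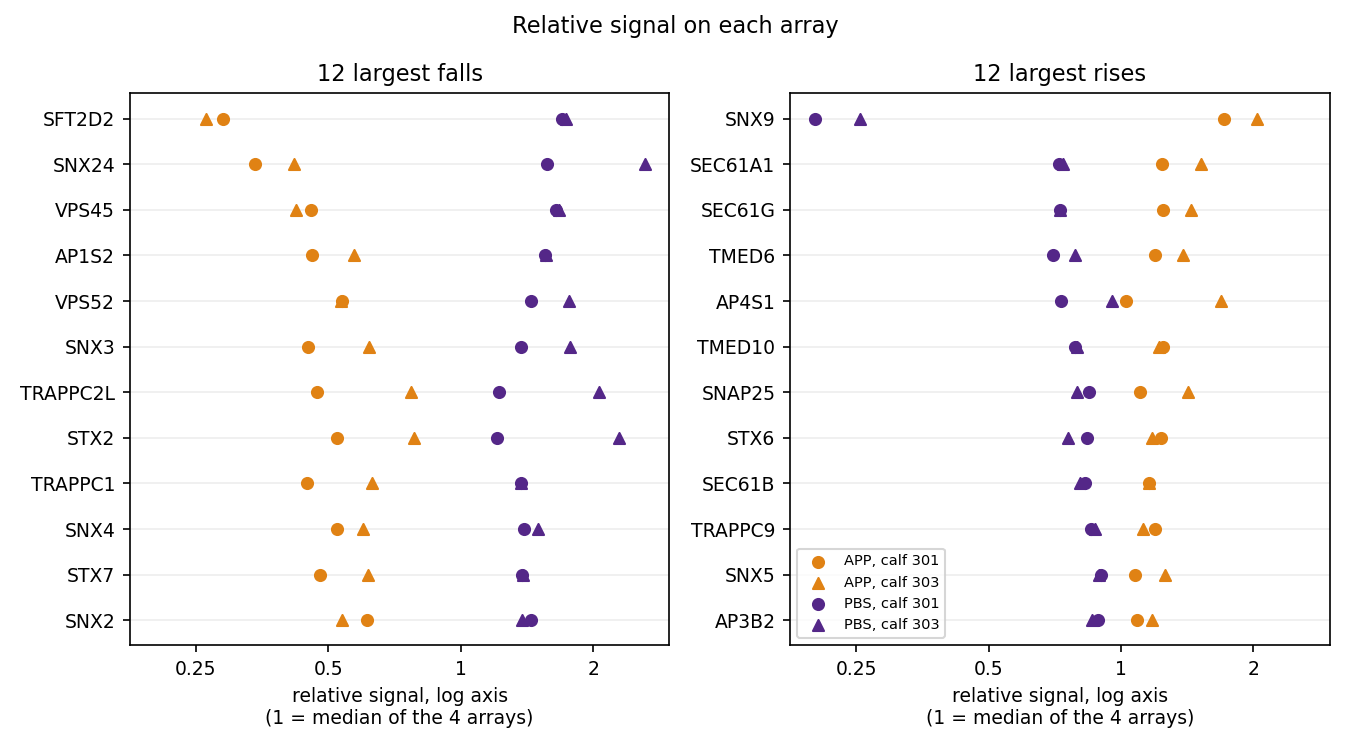
Relative signal (horizontal axis, log scale, 1 = median of the 4 arrays) of the 12 genes with the largest falls and the 12 with the largest rises, on the APP and PBS arrays of calves 301 and 303. APP and PBS arrays do not overlap in any of these 24 genes, which were picked for large changes of the same direction in both calves. Of all genes, 37.2% lie without overlap downward and 36.6% upward. Under control scaling SNX9, SEC61A1 and SEC61G keep changes above 0 and the other rises shown turn below 0.

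Among 18 SNAREs, the membrane proteins that drive fusion, 9 fell, 2 rose and 7 did not pass, with a median of -0.32. These counts stand beside 29.7% falls and 23.0% rises among all genes. STX2, a syntaxin of the plasma membrane, had 0.523 and 0.781 with APP and 1.21 and 2.29 with PBS, and fell 2.60-fold (-1.38 ± 0.24, limma adjusted p = 0.000105). STX7, of late endosomes, had 0.479 and 0.614 with APP and 1.38 and 1.39 with PBS, and fell 2.55-fold (-1.35 ± 0.25, adjusted p = 0.000117). STX8, a partner of STX7 in late endosome fusion, had 0.748 and 0.710 with APP and 1.35 and 1.24 with PBS, and fell 1.77-fold (-0.83 ± 0.03, adjusted p = 0.000412). The falls of STX7 and STX8 were stable, and that of STX2 was lost without APP 301 or PBS 303 (adjusted p up to 0.0949).

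A further member of that late endosomal group is VAMP8, and its probe sets disagreed. One fell by 1.47 (probe set adjusted p = 0.000231) and the other changed by 0.41 and passed as a rise (adjusted p = 0.0298; control scaling puts it below 0). The gene mean of -0.53 (adjusted p = 0.00329) therefore stands between them. VAMP7 (-0.09), also of late endosomes, did not pass, nor did VTI1B (-0.19), a partner of STX7 and STX8 outside the symbols used. Both are named with their values in view. The endosomal and plasma membrane relatives VAMP2 and VAMP3 had changes of 0.21 and -0.06 that did not pass.

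Both rises were of SNAREs outside the late endosome. STX6, of the trans-Golgi network and early endosomes, had 1.23 and 1.18 with APP and 0.837 and 0.759 with PBS, and rose by 0.60 ± 0.05 (adjusted p = 0.00199) where control scaling gives -0.26. SNAP25, best known from nerve terminals, had 1.10 and 1.42 with APP and 0.847 and 0.793 with PBS, and rose by 0.61 ± 0.33 (adjusted p = 0.00666) where control scaling gives -0.24. In each gene 1 probe set carried most of the change, at 1.01 beside 0.18 for STX6 and at 0.99 beside 0.23 for SNAP25. Without PBS 303 neither rise was called (adjusted p = 0.0711 and 0.114), and that of SNAP25 was also lost without APP 303 or PBS 301.

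The 17 clathrin adaptor subunits had 7 falls (41.2%, against 29.7% of all genes), 3 rises (17.65%, against 23.0%) and a median of -0.07. AP1S2, a small subunit of the AP-1 adaptor of the trans-Golgi network, had 0.460 and 0.571 with APP and 1.56 and 1.56 with PBS. It fell by 1.61 (SD 0.21, limma adjusted p = 5.37e-05). Its paralogue AP1S1 had 0.847 and 0.885 with APP and 1.11 and 1.14 with PBS, and fell by 0.37 (SD 0.02, adjusted p = 0.0148). AP3B1, a large subunit of the AP-3 adaptor that serves lysosome-related organelles, had 0.750 and 0.695 with APP and 1.37 and 1.21 with PBS. It fell by 0.83 (SD 0.05, adjusted p = 0.000412). The falls of AP1S2 and AP3B1 were stable, and that of AP1S1 was lost with each array left out.

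The rises among the adaptors were small and not stable. AP4S1, the small subunit of the AP-4 adaptor, had 1.03 and 1.69 with APP and 0.732 and 0.954 with PBS, and rose by 0.66 ± 0.24 (adjusted p = 0.00286; -0.19 under control scaling). AP3B2 rose by 0.37 ± 0.11 (adjusted p = 0.0172; -0.48 under control scaling), with 1.09 and 1.18 with APP and 0.887 and 0.860 with PBS. AP1B1 rose by 0.30 ± 0.14 (adjusted p = 0.0442; -0.55 under control scaling), with 1.24 and 1.04 with APP and 0.936 and 0.912 with PBS. Without the calf block AP4S1 and AP1B1 lost their call, at adjusted p = 0.11 and 0.105. AP4M1, the other AP-4 gene measured, fell by 0.53 (SD 0.17, adjusted p = 0.00535). Of AP-2, which serves endocytosis at the plasma membrane, the 3 subunits AP2B1, AP2M1 and AP2S1 did not pass, also at an unadjusted p under 0.05. Its alpha subunits, outside the symbols used and named with their values in view, differed. AP2A2 had 0.743 and 0.799 with APP and 1.19 and 1.297 with PBS, and fell by 0.69 (SD 0.01, adjusted p = 0.000946), a stable call. AP2A1 had 1.605 and 0.961 with APP and 1.03 and 0.777 with PBS, so the groups overlap, and rose by 0.47 ± 0.24 (adjusted p = 0.0117; -0.38 under control scaling), a call lost without the calf block (adjusted p = 0.229).

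The exocyst, which tethers vesicles to the plasma membrane, had 5 falls (62.5%, against 29.7% of all genes) and no rise among 8 genes. Its median was -0.59 (at an unadjusted p under 0.05, 5 were lower and 1 higher). EXOC1 had 0.669 and 0.604 with APP and 1.49 and 1.33 with PBS, and fell 2.21-fold (-1.15 ± 0.01, limma adjusted p = 0.000102). Its 4 probe sets ranged from -1.75 to -0.41. EXOC7, the subunit that binds the plasma membrane, had 0.814 and 0.671 with APP and 1.43 and 1.17 with PBS, and fell by 0.81 (SD 0.0045, adjusted p = 0.000448). EXOC6 fell by 0.70 (SD 0.10, adjusted p = 0.00108), with 1 probe set at -1.36 and the other at -0.04. The falls of EXOC1 and EXOC6 were stable, and that of EXOC7 was lost without PBS 301 (adjusted p = 0.0536).

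The sorting nexins and retromer held the widest span of changes. Of 20 genes 13 fell, 2 rose and 5 did not pass, with a median of -0.61. For comparison, 29.7% of all genes fell and 23.0% rose. SNX9, which recruits dynamin and actin regulators to endocytic membranes, had 1.71 and 2.04 with APP against 0.201 and 0.255 with PBS. It rose 8.26-fold (3.05 ± 0.06, limma adjusted p = 6.92e-06), by 3.09 in calf 301 and 3.001 in calf 303. This was the largest change among the 159 genes in either direction, was stable, and stayed at 2.19 under control scaling. It was measured by 1 probe set.

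The largest fall of the class was as clear. SNX24, a small nexin with the lipid-binding PX domain, had 0.340 and 0.418 with APP against 1.57 and 2.62 with PBS, and fell 5.39-fold (-2.43 ± 0.31, adjusted p = 2.15e-05). SNX3, which sorts cargo from early endosomes back to the Golgi, had 0.449 and 0.620 with APP and 1.37 and 1.77 with PBS, and fell 2.95-fold (-1.56 ± 0.07, adjusted p = 3.69e-05). SNX4, which sorts receptors for recycling, had 0.523 and 0.599 with APP and 1.39 and 1.495 with PBS, and fell 2.58-fold (-1.37 ± 0.07, adjusted p = 5.81e-05). All 3 falls were stable, as was that of SNX17 (-1.12), an adaptor for receptor recycling that was named after its value had been seen.

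SNX1, SNX2, SNX5 and SNX6 shape the tubules that leave endosomes, each working as a pair of one of SNX1 and SNX2 with one of SNX5 and SNX6. SNX2 had 0.611 and 0.538 with APP and 1.45 and 1.38 with PBS, and fell 2.46-fold (-1.30 ± 0.08, adjusted p = 6.85e-05), while SNX1 had a change of 0.02 (adjusted p = 0.903). SNX6 had 0.916 and 0.548 with APP and 1.44 and 1.07 with PBS, and fell by 0.81 (SD 0.22, adjusted p = 0.000946). SNX5 had 1.08 and 1.26 with APP and 0.899 and 0.891 with PBS, and rose by 0.38 ± 0.17 (adjusted p = 0.0202; -0.47 under control scaling). The fall of SNX2 was stable. The calls of SNX5 and SNX6 were lost without the calf block (adjusted p = 0.0523 and 0.0744).

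Retromer, the complex that carries cargo back from endosomes, had 3 falls and no rise among 4 genes (none was higher at an unadjusted p under 0.05). The shares among all genes were 29.7% falls and 23.0% rises. VPS26A had 0.638 and 0.641 with APP and 1.51 and 1.36 with PBS, and fell 2.25-fold (-1.17 ± 0.11, adjusted p = 0.000114). The alternative subunit VPS26B had a change of 0.04 that did not pass (adjusted p = 0.723). VPS29 (-0.66) and VPS35 (-0.58), the other core subunits, also fell and are named to complete the complex, after their values had been seen. Of these falls that of VPS26A was stable. That of VPS29 was lost without APP 301 or PBS 303 (adjusted p up to 0.115), and that of VPS35 without PBS 301 (adjusted p = 0.054).

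ESCRT proteins bud receptors into multivesicular bodies and cut membrane necks. Of the 18 ESCRT genes with a CHMP or VPS symbol 11 fell (61.1%, against 29.7% of all genes) and 7 did not pass, with a median of -0.45. None rose in limma's test or was higher at an unadjusted p under 0.05. CHMP6 had 0.678 and 0.874 with APP and 1.11 and 1.45 with PBS, and fell by 0.72 (SD 0.005, limma adjusted p = 0.000759). CHMP1A had 0.759 and 0.768 with APP and 1.27 and 1.23 with PBS, and fell by 0.71 (SD 0.05, adjusted p = 0.000853). VPS36, of ESCRT-II, had 0.779 and 0.763 with APP and 1.25 and 1.20 with PBS, and fell by 0.67 (SD 0.03, adjusted p = 0.00109). The falls of CHMP1A and VPS36 were stable, and that of CHMP6 was lost without APP 301 or PBS 303 (adjusted p up to 0.13).

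Of these 18 genes, 7 of 11 CHMP genes of ESCRT-III, the ESCRT-II genes VPS36 and VPS25, and 1 of 3 ESCRT-I genes (VPS37B) fell. VPS4B, an ATPase that takes ESCRT-III filaments apart, had 0.706 and 0.857 with APP and 1.13 and 1.28 with PBS, and fell by 0.63 (SD 0.07, adjusted p = 0.00162). Its paralogue VPS4A had a change of -0.03 (adjusted p = 0.788). CHMP4A fell by 0.59 (adjusted p = 0.00344), beside -0.15 for CHMP4B and 0.10 for CHMP4C, neither of which passed. CHMP1B fell by 0.47 and CHMP2B by 0.44 (adjusted p = 0.00634 and 0.0108), and CHMP2A had -0.25 and did not pass (adjusted p = 0.06). Of the ESCRT-I pair VPS37B fell by 0.57 (adjusted p = 0.00288) and VPS37A had -0.21 (adjusted p = 0.129). Apart from VPS36 and CHMP1A, no fall among these 18 genes was stable.

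ESCRT genes with other symbols, named with their values in view, went both ways. The ESCRT-II subunit SNF8 had 1.25 and 1.075 with APP and 0.913 and 0.777 with PBS, and rose by 0.46 ± 0.01 (limma adjusted p = 0.00608; -0.39 under control scaling), opposite to VPS36 and VPS25. UBAP1 of ESCRT-I (0.38, adjusted p = 0.0139) and STAM2 of ESCRT-0 (0.34, adjusted p = 0.0215) also rose, where control scaling gives -0.47 and -0.51. The rises of SNF8, UBAP1 and STAM2 were not stable. HGS of ESCRT-0 fell by 0.83 (adjusted p = 0.000399) and VTA1, a cofactor of the VPS4 ATPases, by 0.96 (adjusted p = 0.000251), and both calls were stable. MVB12A of ESCRT-I fell by 0.45 (adjusted p = 0.012), which was not stable, and TSG101 of ESCRT-I had 0.01 and did not pass.

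The 14 remaining VPS genes, mostly tethers of lysosome and Golgi fusion, held 8 falls (57.1%, against 29.7% of all genes) and 2 rises (14.3%, against 23.0%). VPS45, which works with syntaxins at endosomes and the trans-Golgi network, had 0.457 and 0.422 with APP and 1.64 and 1.67 with PBS. It fell 3.78-fold (-1.92 ± 0.10, limma adjusted p = 2.05e-05), with probe sets at -2.54 and -1.30. VPS52, of the GARP tether for endosome-to-Golgi traffic, had 0.538 and 0.534 with APP and 1.45 and 1.76 with PBS, and fell 2.98-fold (-1.57 ± 0.21, adjusted p = 5.57e-05). Both calls were stable, and in both genes the APP arrays lay below the PBS arrays, an order found in 37.2% of all genes.

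HOPS and CORVET, the tethers of late and early endosomes, share a core to which VPS11 and VPS18 belong. VPS11 had 0.694 and 0.570 with APP and 1.29 and 1.40 with PBS, and fell 2.13-fold (-1.09 ± 0.28, adjusted p = 0.000358). VPS18 had 1.18 and 1.06 with APP and 0.930 and 0.807 with PBS, and rose by 0.37 ± 0.03 (adjusted p = 0.0156; -0.48 under control scaling). VPS33B, which resembles a HOPS subunit and acts in sorting to granules, had 0.710 and 0.748 with APP and 1.27 and 1.25 with PBS, and fell by 0.79 (SD 0.07, adjusted p = 0.000547), with probe sets at -1.26 and -0.32. The falls of VPS11 and VPS33B were stable, and the rise of VPS18 was lost without the calf block (adjusted p = 0.0669). The other rise was VPS72 (0.36, adjusted p = 0.0201; -0.49 under control scaling), a subunit of a chromatin remodelling complex that shares the name but not the pathway. The 2 remaining SEC genes, SEC14L1 and SEC14L2 of the lipid-transfer SEC14 family, had changes of 0.21 and 0.15 that did not pass (adjusted p = 0.107 and 0.306), and none was higher or lower at an unadjusted p under 0.05.

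Some paralogues differed widely in their changes, and of 19 pairs 5 lay more than 1 apart on the log2 scale in both calves. SFT2D1 minus SFT2D2 was 1.61 in calf 301 and 1.74 in calf 303. SNX1 minus SNX2 was 1.24 and 1.39, and SEC61A1 minus SEC61A2 was 1.25 and 1.31. AP1S1 minus AP1S2 was 1.37 and 1.10, and VPS26A minus VPS26B was -1.24 and -1.18. SNX5 minus SNX6, at 0.92 and 1.46, was not among the 5, as it lay under 1 in calf 301. These differences do not change with control scaling, as each compares genes on the same arrays. Smaller differences varied between the calves, as VPS37A minus VPS37B was 0.54 and 0.17, and COPZ1 minus COPZ2 was 0.26 and -0.03, the pair with opposite signs. No test was made of a difference between genes.

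**Figure D4:**
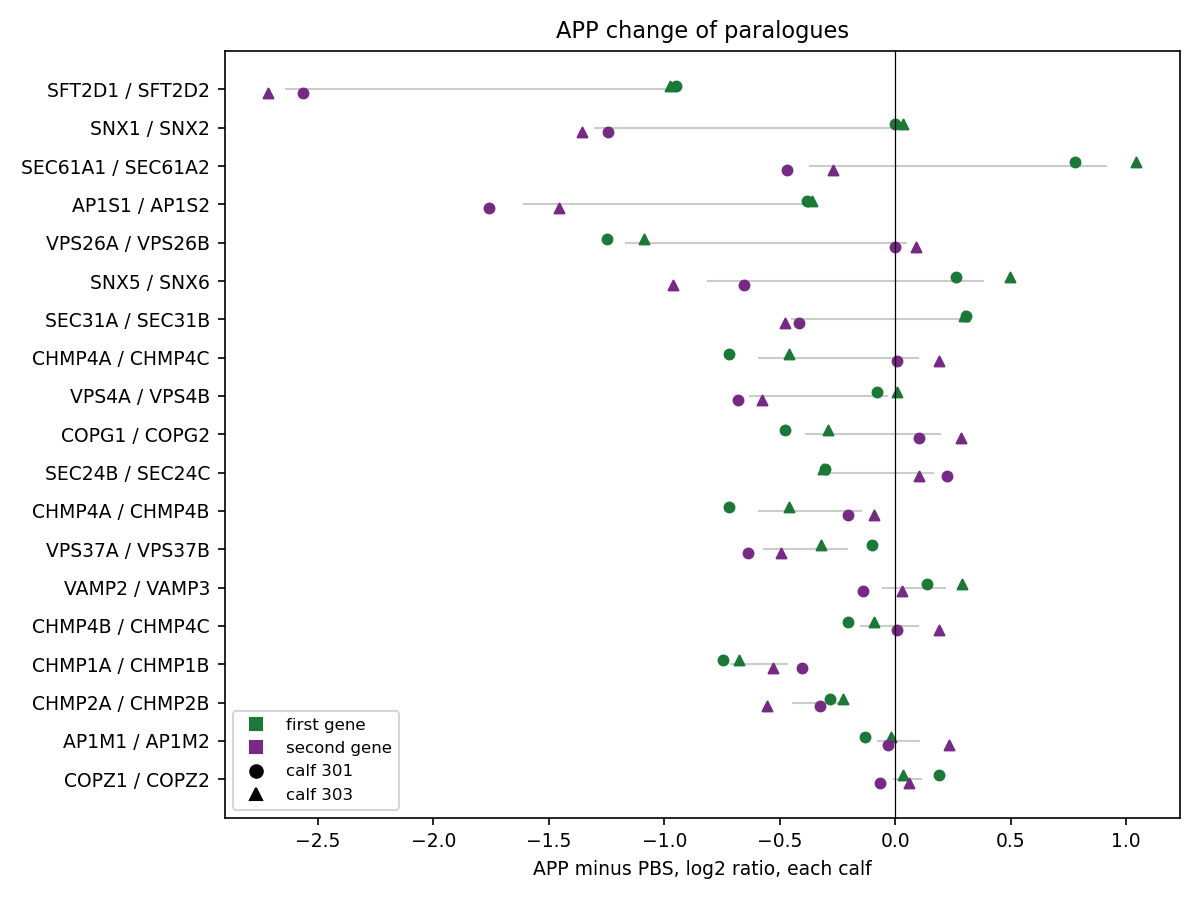
APP minus PBS change (horizontal axis, log2 ratio) of paralogues in calf 301 (circles) and calf 303 (triangles), the first gene of each pair in green and the second in purple, ordered by the size of their difference. SFT2D1 and SFT2D2 lie farthest apart (mean difference 1.68) and COPZ1 and COPZ2 closest (0.12). Positions against the 0 line move down by 0.852 on average under control scaling, while distances within a pair do not.

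Probe sets of a gene did not always agree. Of the 59 genes with several probe sets, 22 had changes more than 0.5 apart. In 2 of them probe sets passed in opposite directions, VAMP8 as given above and COG4. COG4 had 1 probe set that fell by 0.76 (adjusted p = 0.00305), 1 that rose by 0.37 (adjusted p = 0.0343; control scaling puts it below 0) and 1 at -0.33 that did not pass. The gene mean of COG4, -0.24, did not pass (adjusted p = 0.0699). For the 100 genes with 1 probe set the median change was -0.29, and for the 59 with several it was -0.26.

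The calves gave similar changes. Across the 159 genes the changes in calves 301 and 303 correlated with Pearson r = 0.935 and Spearman rho = 0.900, against r = 0.930 across all genes. These are correlations across genes of 4 arrays, and genes are not independent replicates. The SD of the changes over genes was 0.644 in calf 301 and 0.667 in calf 303. The difference between the calves within a treatment had a smaller SD, 0.269 with APP and 0.230 with PBS.

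**Figure D5:**
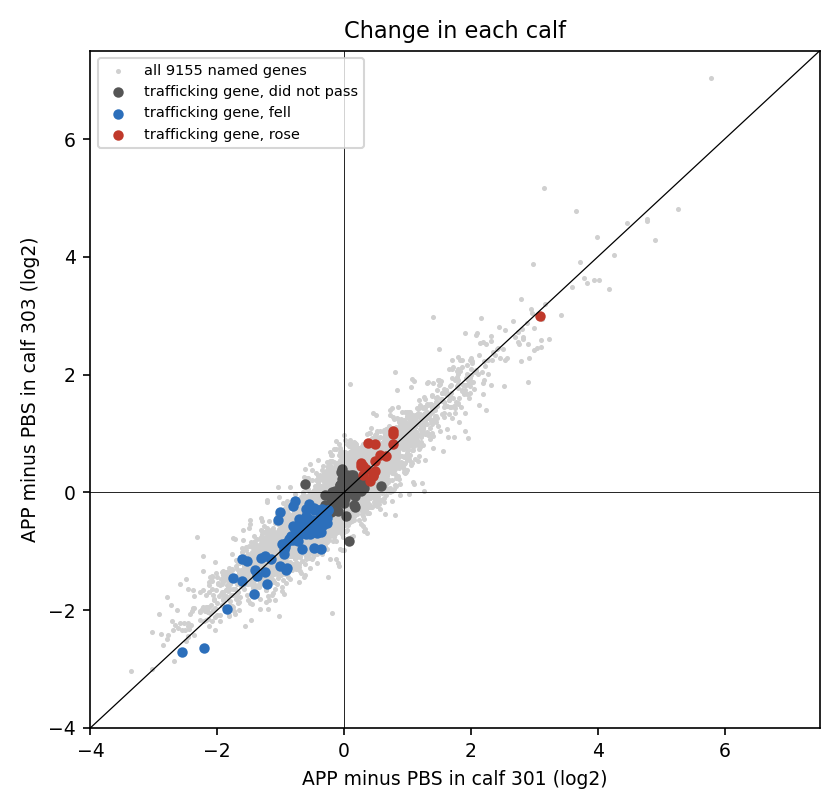
APP minus PBS change in calf 303 (vertical axis, log2) against calf 301 (horizontal axis, log2) for all 9155 named genes (grey) and the 159 trafficking genes by call, with the line of equal change. Trafficking genes lie along the line (r = 0.935), with 101 of them below 0 in both calves and SNX9 alone above 2. Under control scaling 15 of the 18 rises lie below 0.

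Between the animals, 3 trafficking genes were higher in calf 303 than in calf 301 across both treatments, and none was lower in limma's test (14 were higher and 13 lower at an unadjusted p under 0.05). Among all genes 1.27% were higher and 0.437% lower. TRAPPC6B was higher by 0.76 (limma adjusted p = 0.0222), STX2 by 0.75 (adjusted p = 0.0315) and TRAPPC2L by 0.74 (adjusted p = 0.0172). For TRAPPC6B the gap between calves 303 and 301 was 0.64 with APP and 0.87 with PBS, for STX2 0.58 and 0.92, and for TRAPPC2L 0.71 and 0.76. These same genes fell with APP in both calves. The comparison sets 1 animal against 1. The T cell markers CD8A, CD8B and CD2 were also higher in calf 303, by 1.59 (adjusted p = 0.00673), 2.30 (adjusted p = 0.000499) and 1.10 (adjusted p = 0.00382). Their part in these differences was not tested.

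Other genes of the same routes, listed from knowledge of the pathways and not matched by the symbols above, were measured too. Of 120 such genes, 44 fell (36.7%, against 29.7% of all genes), 28 rose (23.3%, against 23.0%) and 48 did not pass, with a median of -0.09 that is -0.94 under control scaling. The largest rise was SAR1A, the GTPase that starts the COPII coat, with 1.46 and 1.47 with APP and 0.484 and 0.522 with PBS. It rose 2.91-fold (1.54, limma adjusted p = 3.93e-05) and stayed at 0.69 under control scaling. Its paralogue SAR1B rose by 0.85 (adjusted p = 0.000411), the cycling receptor ERGIC1 by 0.79 (adjusted p = 0.000557) and the signal peptidase subunit SPCS3 by 0.76 (adjusted p = 0.00078), each of which falls just below 0 under control scaling (-0.0016, -0.06 and -0.09). On the deposited scaling SAR1A and SAR1B thus moved opposite to SEC23A, their partner in the coat, while under control scaling SAR1B had a change below 0.

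The largest falls among these genes lay at the Golgi and endosomes. ARFGAP3, which ends the cycle of the GTPase ARF1 on COPI vesicles, had 0.271 and 0.329 with APP and 1.77 and 1.66 with PBS, and fell 5.74-fold (-2.52, adjusted p = 1.67e-05). WASHC3, of the complex that builds actin on endosomes, had 0.499 and 0.541 with APP and 1.46 and 1.46 with PBS, and fell 2.81-fold (-1.49, adjusted p = 4.54e-05). COMMD7 (-1.57) and COMMD10 (-1.42), subunits of the COMMD assembly that recycles receptors together with retriever, fell as well (adjusted p = 3.57e-05 and 9.03e-05). All of these falls, and the rises of SAR1A, SAR1B and SPCS3, held with each array left out. The rise of ERGIC1 was lost without PBS 303 (adjusted p = 0.0502).

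By route, the endosome sorting and ESCRT list had 16 falls and 4 rises among 33 genes and the SNARE partners 8 and 2 among 17. These and the following counts stand beside 29.7% falls and 23.0% rises among all genes. The translocation list had 6 falls and 2 rises among 15, and the COPII and ER exit list 5 and 5 among 17 (29.4% each). Clathrin and adaptor partners had 4 falls and 7 rises among 18, the Golgi tether and structure list 3 and 4 among 10, and the COPI list 2 and 4 among 10. Under control scaling SAR1A was still called as a rise, 18 of the other rises were called as falls and 9 were not called. Without PBS 303 the 120 genes had 20 falls and 4 rises.

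Markers of cell types were read beside the shares of all genes, 29.7% falls and 23.0% rises. The gamma delta receptor genes TRDC, TRGC1 and TRGC2 were not analysed here. Of 9 gamma delta and general T cell markers 6 fell and 1 rose. The falls were CD7 (-1.58), the surface receptor family members CD163L1 (-1.08) and WC1.3 (-0.86), CD247 (-0.53), CD3G (-0.47) and CD2 (-0.29). That of CD2 was lost without the calf block (adjusted p = 0.671). CD5 rose by 0.62, where control scaling gives -0.23, and CD3D (-0.13) and CD3E (-0.08) did not pass. Of 4 B cell markers 3 fell (BLK -1.04, CD79A -0.80, MS4A1 -0.56). Of 10 monocyte and dendritic cell markers 3 rose, CD68 by 2.31, CD14 by 0.46 and FCGR1A by 0.46, of which CD68 alone stayed above 0 under control scaling. Of the 3 alpha beta T cell markers CD8A rose by 1.08 and CD8B fell by 0.64, both lost without the calf block (adjusted p = 0.281 and 0.646), and CD4 (0.20) did not pass. Of 5 NK cell markers NKG7 and KLRD1 rose, each by 0.30, where control scaling gives -0.55 for both. Of 4 red cell markers GYPC fell (-0.57), and neither of 2 platelet markers passed. Apart from CD3D, CD3E and CD4, the markers named are those that passed. Their part in the changes of the trafficking genes was not tested.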

How the data were processed

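RNA of APP- and PBS-treated gamma delta T cells of 2 calves was measured on 4 Affymetrix bovine arrays, from 15 µg of total RNA each. Per the submitters' processing notes, the authors used RMA to summarise probes, with no version given. The deposited values are linear ratios of each probe set to its own median over the 4 arrays. The sources used here do not state this, and it was found from the values. Levels are lost, so which probe sets lay near background is unknown, and changes of such probe sets would be compressed. 

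The ratios were log2 transformed with no pseudocount and no further normalization. All 112 control probe sets were left out and 24016 were tested, of which 13292 had 1 gene symbol, 86 several and 10638 none in the platform annotation. Log2 values were averaged over the probe sets of a gene, giving 9155 genes, of which the named symbols take 159 (100 with 1 probe set, at most 5). All 159 matched a RefSeq gene by identifier (assembly ARS-UCD2.0, used for names only) and none changed its symbol. No sequence was used.

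The change with APP was estimated in R 4.3.3 by limma 3.58.1, a two-sided moderated test, with Benjamini-Hochberg adjustment over all genes and a threshold of 0.05. The calf was a block because the titles give the same 2 animals for both treatments. The difference between the calves correlated between treatments with r = 0.555 across the 159 genes and 0.509 across all genes. The fit had 1 residual and 5.86 prior degrees of freedom for genes, and 5.19 prior for probe sets. The standard error of a change lay between 0.0946 and 0.196. The smallest change that passed was 0.27 and the largest that did not was 0.38. The number of arrays, 2 a treatment, limits the precision. The test was also run on simulated data drawn from its own model, with far fewer genes changed than were called here. That run cannot check the scaling of the arrays or the spread between animals. Alternatives were no block, quantile normalization, median centring, scaling to 7 hybridization control probe sets, the most variable probe set of a gene, genes with 1 probe set, a robust prior, a pseudocount of 0.1, updated symbols, and each array left out in turn without the block.

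Genes named are the 12 largest rises and falls past the threshold in the same direction in both calves, up to 3 each way per class, listed paralogues together with the COPI subunits COPB1 and COPB2, up to 3 each way that differed between the calves, genes with probe sets called in opposite directions, and up to 4 pathway partners each way. Of 160 partners listed, 120 were measured. The genes, classes, lists and rules were chosen with earlier results of these data known, and give no independent support to a pattern seen before.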

Additional observations from a re-analysis of the deposited data

Results flagged for a closer look

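The bacterial hybridization controls, which take no part in the comparisons, read higher on the APP arrays than on the PBS arrays. The 7 probe sets for bioB, bioC and bioD had mean log2 ratios of 0.28 and 0.54 on the APP arrays of calves 301 and 303 and -0.50 and -0.39 on the PBS arrays. The difference was 0.776 in calf 301 and 0.928 in calf 303, with a mean of 0.852. They drew attention because a signal outside the main measurement stood above its level in the PBS arrays. The cause was not tested.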

How the results depend on the processing

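Counts of falls and rises among the 159 genes were 79 and 18, with a median change of -0.27. The 79 falls stayed below 0 under every alternative run on them. Scaling to the hybridization controls gave 151 falls and 1 rise and a median of -1.13, where the median of all genes moved to -0.84. Under that scaling 22 named genes changed sign. They were AP1B1 (-0.55), AP1M2 (-0.75), AP3B2 (-0.48), AP4S1 (-0.19), CHMP4C (-0.75), COPG2 (-0.66), COPZ1 (-0.74), SEC24C (-0.69), SEC31A (-0.55), SEC61B (-0.35), SNAP25 (-0.24), SNX1 (-0.84), SNX5 (-0.47), STX6 (-0.26), TMED10 (-0.21), TMED6 (-0.062), TMED9 (-0.48), TRAPPC9 (-0.43), VAMP2 (-0.64), VPS18 (-0.48), VPS26B (-0.81) and VPS72 (-0.49). In the unpaired fit with no replicate block there were 64 falls and 11 rises, all of them among the calls of the paired fit. Genes with 1 probe set had 48 falls and 14 rises among 100 genes, with a median of -0.29, since fewer genes were tested. The median was -0.26 with quantile normalization, -0.37 with the most variable probe set and -0.25 with a pseudocount. Leaving out each array in turn gave 34 to 62 falls, 5 to 11 rises and medians from -0.31 to -0.29, with fewer arrays and no block. Across all alternatives the 75 named trafficking genes were compared 949 times, of which 813 kept direction and side of the threshold, 104 were no longer called, 10 became called and 22 changed sign. Median centring, a robust prior and updated symbols changed no call of a named gene and no count by over 1.5 times. Arrays give no depth, and with levels lost the signal over background that limits a small change is unknown.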
